A study of Vitis vinifera with 2 samples.

Results

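Transposable elements (TEs) in gene-poor stretches of the grapevine chromosomes are described here by their DNA methylation in embryogenic callus (EC) and in leaf. The TEs of chromosomes 1 to 19 were placed by their midpoints in windows of 1 Mb. A window was taken as gene-poor when it held at least 50 TEs of which under 10% were genic TEs, meaning TEs that overlap a gene annotation. The rule used no methylation level, but it counted only TEs listed with a methylation value. The rule kept 50 of 433 windows with at least 50 TEs (11.5%). They held 24629 of the 176629 TEs placed on chromosomes 1 to 19 (13.9%), and 13.4% of the 184251 TEs in the series. Of these members, 23016 were intergenic TEs and 1613 were genic TEs. Genes themselves were not counted, because no annotation of the genome build of the files was used, so gene-poor means poor in TEs that overlap genes.

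The tissues were compared by whole-genome bisulphite sequencing, in which unmethylated cytosines are read as thymine and methylated cytosines are still read as cytosine. Both came from Vitis vinifera cv. 'Chardonnay', and the labels name no treatment. EC was a proliferating culture raised from anthers and kept in the dark on solid medium, with several Petri dishes pooled, and leaf was young leaf tissue with several leaves pooled. Each tissue gave 1 library, so the differences have no replicate check, no test between tissues was made, and tissue cannot be told apart from culture, organ or library. The values are methylated fractions per TE, given here as percentages. The depth behind single values is unknown, since the files give neither read numbers nor cytosine numbers. Standard deviations (SD) below are over TEs or over windows, as named, and windows share the same pair of libraries.

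In plants, CG methylation is copied onto the new strand after replication by MET1, and CHG methylation, where H is A, C or T, is kept up mainly by CMT3, which binds histone H3 methylated at lysine 9. CHH methylation has no symmetric copy to follow. It is set anew by CMT2 in heterochromatin and by DRM2, which small RNAs guide in the RNA-directed pathway. TE-dense stretches around plant centromeres are the classic place of such heterochromatin, and in Arabidopsis the histone demethylase IBM1 keeps CHG methylation off the bodies of transcribed genes.

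The gene-poor windows were dense in TEs. They held 493 ± 91.9 TEs each (SD, n = 50 windows), with a range of 52 to 692, against 397 ± 93.6 in the other 383 windows with at least 50 TEs. TEs covered 48.1% ± 12.7 of a gene-poor window and 28.8% ± 11.0 of an other window. The genic share of the TEs was 0.452 to 9.70% in gene-poor windows, with a median of 6.70%. In the other windows it was 10.1 to 67.6%, with a median of 27.4%. Gene-poor windows thus took 17.1% of all placed intergenic TEs but 3.83% of all placed genic TEs. The rule itself keeps these genic shares apart, so the low share of genic TEs is built in.

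These windows were clustered along the chromosomes. The 50 windows formed 32 runs, of which 23 were single windows, and 9 runs of at least 2 neighbours held the other 27 windows. The longest run, of 6 windows, lay on chromosome 19 from 11000000 to 16999999 in the 12X coordinates of the files and held 2596 TEs. The next, of 4 windows on chromosome 18 from 14000000 to 17999999, held 2339 TEs. 18 of 19 chromosomes had at least 1 gene-poor window, chromosome 5 had none, and 5 chromosomes had a single one.

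The limits of the rule cut through windows that were much alike. Just inside the limit of 10% were windows on chromosomes 13, 14 and 12 with genic shares of 9.68, 9.69 and 9.70%, where the CHG difference of intergenic TEs (EC minus leaf) was 13.3, 10.9 and 15 percentage points. Just outside were windows on chromosomes 10, 15 and 5 with shares of 10.06, 10.10 and 10.10%, where it was 12.2, 11.5 and 13.5 percentage points. The limit on TE number touched few windows. 1 window of chromosome 17 passed with 52 TEs and the next smallest held 366. 4 windows with a genic share of 0 held 1 to 19 TEs and were left out. Windows of 1 to 52 TEs may be cut short by a chromosome end, which was not checked.

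Intergenic TEs of gene-poor windows had more methylation in EC in every context. Mean CHG methylation was 79.0% in EC and 64.2% in leaf, a difference of 14.8 percentage points with an SD over TEs of 16.8 (n = 14691 TEs). Mean CG methylation was 87.5% in EC and 81.8% in leaf, a difference of 5.70 (SD 13.3, n = 14479). CHH methylation averaged 35.1% in EC and 2.94% in leaf, a difference of 32.2 (SD 12.2, n = 22977). The SD of the difference over single TEs exceeded its mean in CG and CHG, so the difference varied widely from TE to TE there. The CHH levels were set apart, and 99.4% of the intergenic TEs were higher in EC, against 87.5% for CHG and 72.1% for CG.

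Counted by TEs with a gap of 10 percentage points or more between tissues, CHG stood out from the background. 9582 intergenic TEs of gene-poor windows (65.2%) were higher in EC by this much in CHG, where the same was true of 51.6% of all intergenic TEs on chromosomes 1 to 19. 800 (5.45%) were lower by this much, where the background was 12.5%. In CG, 3491 (24.1%) were higher and 700 (4.83%) were lower, against a background of 19.8% higher and 8.65% lower. In CHH, 21788 (94.8%) were higher, against 89.6%, and 2 TEs were lower, against a background of 0.0387%. The background includes the members themselves.

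Set against intergenic TEs in the other windows, the excess in CHG lay mostly in EC. In CHG, those of gene-poor windows were 10.04 percentage points higher in EC and 3.07 higher in leaf than those of the other windows, where the means were 69.0% in EC and 61.2% in leaf. The EC minus leaf difference was therefore 14.8 in gene-poor windows and 7.79 in the other windows. In CG it was 5.70 in gene-poor windows and 2.78 in the other windows, while the leaf levels were within 0.296 percentage points of each other. In CHH it was 32.2 in gene-poor windows and 31.5 in the other windows, a gap of 0.749, which is smaller than the SD of 1.46 over gene-poor windows. The CG gap of 2.92 was likewise smaller than the SD of 3.75 over gene-poor windows. The gap in CHG exceeded the spread, as window means were 14.5 ± 4.14 percentage points in gene-poor windows (SD, n = 50) and 6.52 ± 5.05 in the other windows (SD, n = 383). The ranges overlapped, with 2.34 to 25.1 in gene-poor windows and -7.18 to 20.5 in the other windows.

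Genic TEs of gene-poor windows did not share the CHG difference. Their mean CHG methylation was 51.8% in EC and 52.2% in leaf, a difference of -0.454 percentage points with an SD over TEs of 23.4 (n = 1030). The mean over windows was 0.304 ± 8.23 (SD, n = 47 windows with at least 5 such TEs), so no direction held against the spread, and the median TE differed by 2.22. Mean CG methylation was 85.6% in EC and 82.1% in leaf, a difference of 3.51 (SD 12.6, n = 923). CHH methylation averaged 23.1% in EC and 2.25% in leaf, a difference of 20.8 (SD 15.7, n = 1610).

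By counts, genic TEs went both ways in CHG. 310 (30.1%) were at least 10 percentage points higher in EC and 246 (23.9%) at least 10 lower, where 13.8% of all placed genic TEs were higher and 40.8% were lower. In CG, 161 (17.4%) were higher and 63 (6.83%) lower, against a background of 12.3% higher and 11.3% lower. In CHH, 1080 (67.1%) were higher, against 52.4%, and 1 TE was lower, against 0.0357%. In both CG and CHG the share of higher TEs was thus above the background and the share of lower TEs below it.

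Genic TEs differed more between window groups than intergenic TEs did. In the other windows genic CHG was 35.8% in EC and 46.2% in leaf, a difference of -10.4 percentage points, which is 9.96 below that in gene-poor windows. The EC level of genic CHG was 16.0 percentage points higher in gene-poor windows and the leaf level 6.08 higher. For CHH the difference was 20.8 in gene-poor windows and 15.2 in the other windows. For CG it was 3.51 in gene-poor windows and 0.376 in the other windows. The CHG gap of 9.96 exceeded the SD of 8.23 over gene-poor windows, and it was 17.5 with a genic share under 5%. The CHH gap of 5.58 was about equal to its SD of 5.56, and the CG gap of 3.13 was smaller than its SD of 4.78. Window means of the genic CHG difference were above 0 in 28 of 47 gene-poor windows, and in 41 of 383 other windows.

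Within a gene-poor window, genic TEs had the lower CHG difference without exception. The genic mean was below the intergenic mean in 47 of 47 windows with at least 5 genic TEs, by 14.4 ± 9.06 percentage points (SD), and the gap ran from -35.0 to -1.35. For CHH it was below in 47 of 48 windows, by 11.1 ± 5.93. For CG it was below in 32 of 46 windows, by 2.1 ± 5.09, which is within the spread. Pooled over TEs, the genic minus intergenic gap in the CHG difference was -15.2 in gene-poor windows and -18.2 in the other windows.

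**Figure D1:**
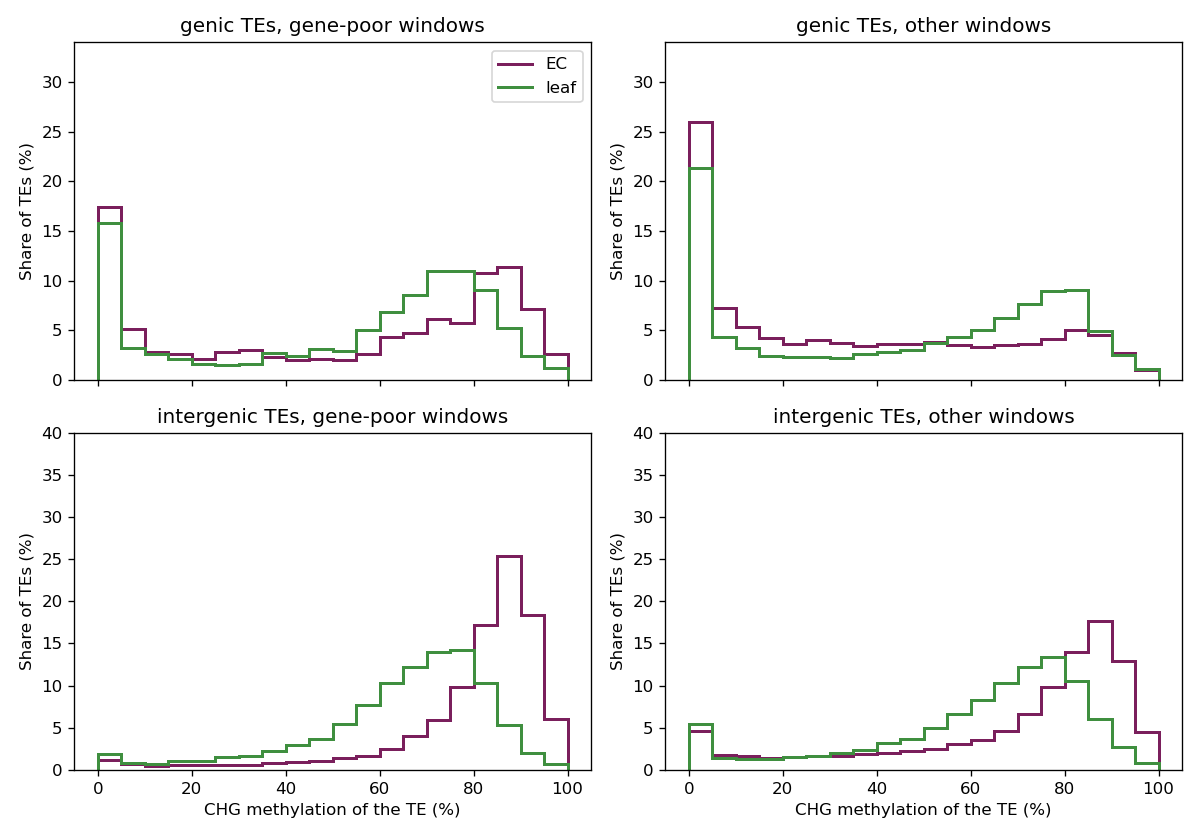
Distribution of CHG methylation per TE (x axis, %, in steps of 5) in EC and leaf, as a share of the TEs of each panel (y axis, %), for genic TEs (top) and intergenic TEs (bottom) in gene-poor windows (left) and in the other windows (right). Intergenic TEs of gene-poor windows have their highest step at 85 to 90% in EC, with 25.3% of the TEs, and at 75 to 80% in leaf, with 14.3%.

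The plot of CHG distributions shows how narrow the EC levels of intergenic TEs were in gene-poor windows. There 89.0% of intergenic TEs reached 60% CHG methylation in EC and 69.1% did so in leaf, while 3.08% in EC and 4.58% in leaf were under 20%. In the other windows 73.9% reached 60% in EC and 64.4% in leaf. Genic TEs had a peak at low and a peak at high levels in both tissues. In gene-poor windows 52.9% of genic TEs reached 60% in EC and 55.2% in leaf, with 28.0% under 20% in EC and 23.8% in leaf. In the other windows 27.8% reached 60% in EC, against 45.4% in leaf.

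Intergenic TEs with middle levels in leaf were mostly at high levels in EC, and genic TEs were split. Of 3866 intergenic TEs between 20 and 60% in leaf, 3128 (80.9%) were at 60% or more in EC, and in the other windows this was so for 61.3%. Of 216 genic TEs of gene-poor windows at such a level, 102 (47.2%) were at 60% or more in EC and 20.8% under 20%, and in the other windows 16.9% and 41.0%. Of 569 genic TEs of gene-poor windows at 60% or more in leaf, 434 (76.3%) were at 60% or more in EC, and in the other windows 51.9%. Intergenic TEs that were already at 60% or more in leaf seldom left that level, as 3.47% had a middle level in EC and 0.542% were under 20%, against 10.1% and 1.78% in the other windows. Among genic TEs these shares were 18.1% and 5.62%, against 38.9% and 9.12% in the other windows.

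**Figure D2:**
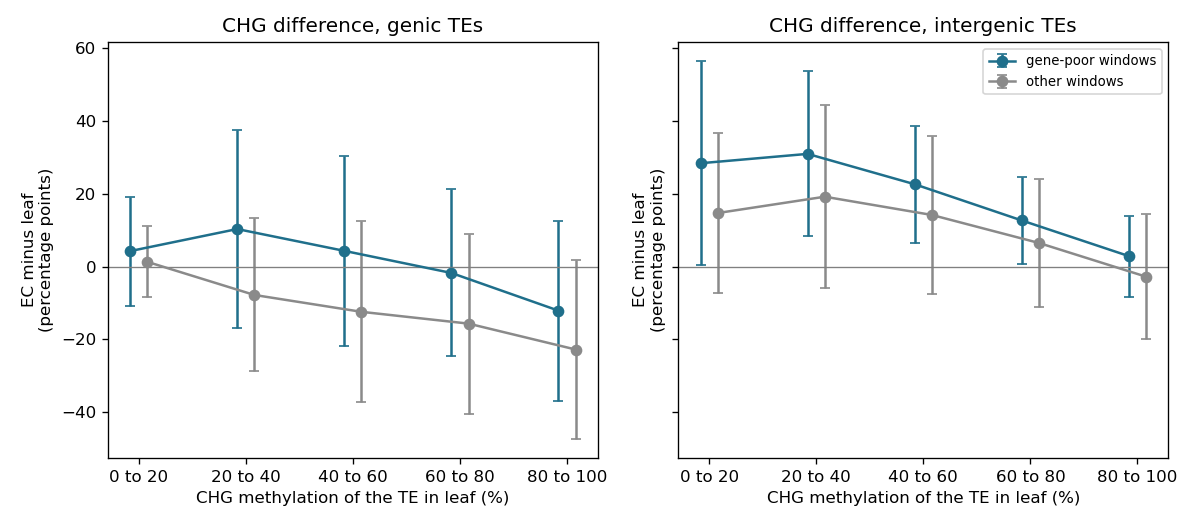
Mean EC minus leaf difference in CHG (y axis, percentage points) for genic TEs (left) and intergenic TEs (right), by the CHG methylation of the TE in leaf (x axis, %), in gene-poor windows and in the other windows. Bars are 1 SD over TEs, and in each of the 10 pairs the gene-poor mean is the higher one.

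The gap between window groups was present at each leaf level. In the plot by leaf level, the CHG difference of intergenic TEs in gene-poor windows was 28.4 percentage points for TEs under 20% in leaf, 31.0 from 20%, 22.6 from 40%, 12.7 from 60% and 2.87 from 80%. In the other windows it was 14.7, 19.2, 14.2, 6.48 and -2.78 over the same steps. For genic TEs of gene-poor windows it was 4.25, 10.3, 4.32, -1.75 and -12.1, and in the other windows 1.30, -7.80, -12.4, -15.7 and -22.8. The leaf value enters both axes, so the decline along the steps is partly built in, and the comparison is between window groups within a step. The SD over TEs was larger than each gap.

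**Figure D3:**
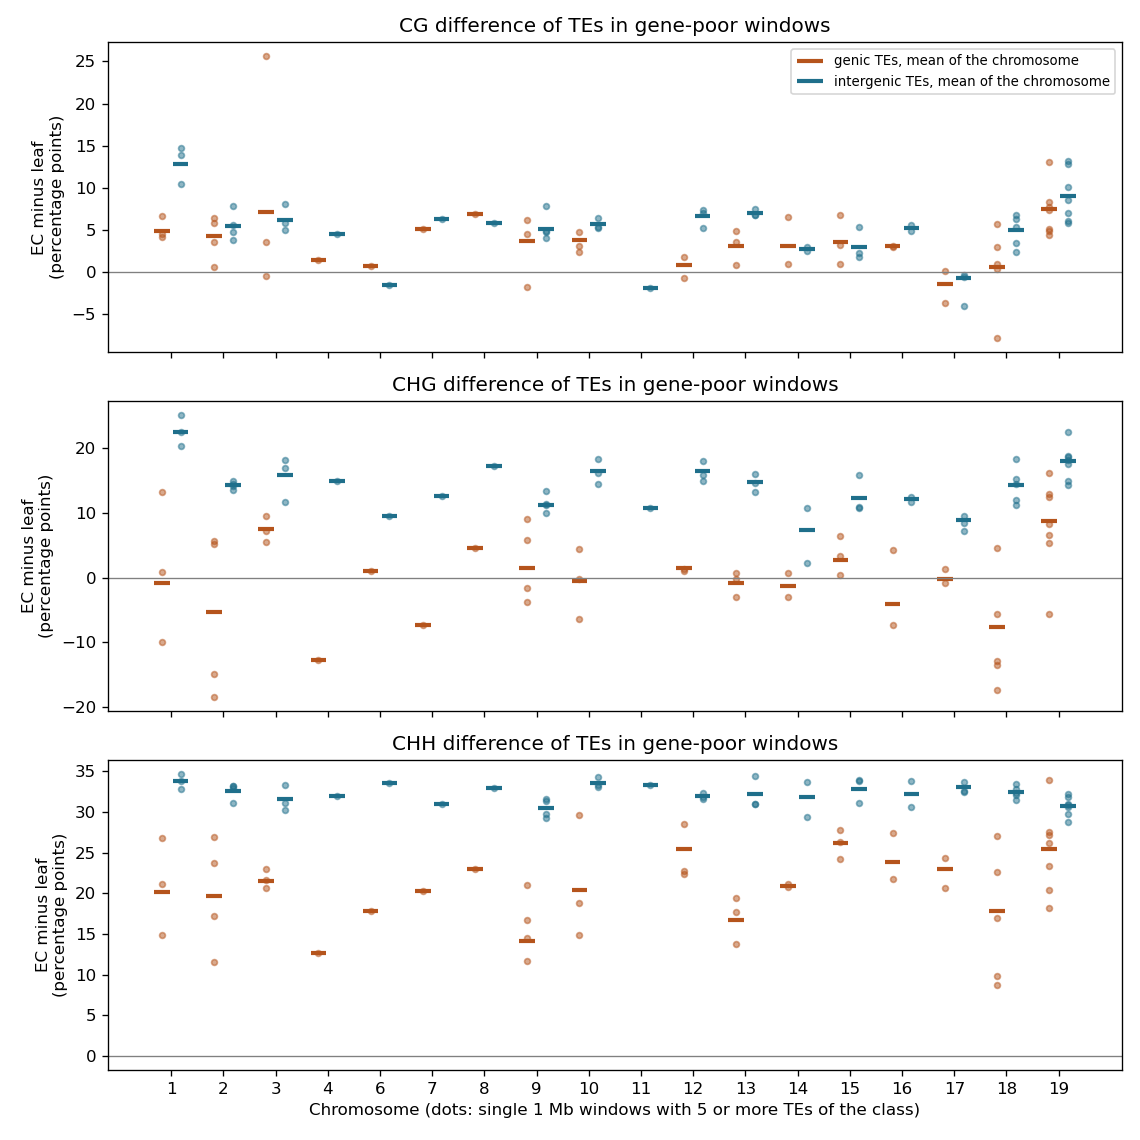
Mean EC minus leaf difference (y axis, percentage points) in CG, CHG and CHH for genic and intergenic TEs of gene-poor windows, by chromosome (x axis). Bars are means over the TEs of the chromosome and dots are single 1 Mb windows with at least 5 TEs of the class. Intergenic CHG dots lie above 0 in 50 of 50 windows, and genic CHG dots in 28 of 47.

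Chromosome by chromosome, intergenic CHG was higher in EC on 18 of 18 chromosomes with gene-poor windows, and CHH likewise. The CHG difference was smallest on chromosome 14 (7.46 percentage points) and largest on chromosome 1 (22.6), and the CHH difference was smallest on chromosome 9 (30.5) and largest on chromosome 1 (33.8). Mean intergenic CG was higher in EC on 15 chromosomes and lower on 3. Among the 17 chromosomes with at least 10 genic TEs in gene-poor windows, mean genic CHG was higher in EC on 7 and lower on 10. Mean genic CG was higher on 16, and mean genic CHH was higher on 17. Compared with the other windows of the same chromosome, the intergenic CHG difference was larger on 17 of 18 chromosomes and the genic CHG difference was higher on 16 of 17.

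Chromosome 1 had the highest intergenic differences in all contexts. Its 3 neighbouring gene-poor windows, from 12000000 to 14999999, held 1583 TEs, 98 of them genic. Intergenic CHG was 82.9% in EC and 60.3% in leaf, and intergenic CG was 90.0% in EC and 77.1% in leaf, a CG difference of 12.8 percentage points. The CHG difference of 22.6 stood against 7.36 in the other windows of the chromosome. Genic CHG was 46.6% in EC and 47.4% in leaf (n = 65), so the pooled genic mean had no such difference there. By window the genic CHG difference was 0.813, -9.87 and 13.3 percentage points at 12, 13 and 14 Mb.

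Chromosome 2 had 4 gene-poor windows with 2003 TEs, 156 of them genic. Its intergenic TEs were highly methylated, with 91.5% CG and 83.1% CHG in EC, against 86.0% CG and 68.8% CHG in leaf. The genic CHG difference was split along the chromosome, with 5.71 and 5.29 percentage points in the windows at 11 and 12 Mb, and -18.5 and -14.95 in those at 14 and 16 Mb. The intergenic CHG difference did not follow this split and lay between 13.6 and 14.99 in the 4 windows.

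Chromosome 3 had 3 separate gene-poor windows with 1589 TEs, 91 of them genic. Intergenic CHG was 77.8% in EC and 61.9% in leaf, a difference of 15.9 percentage points. Genic CHG was higher in EC in each of the 3 windows, and over the chromosome it was 53.8% in EC and 46.2% in leaf (n = 57). The window at 10 Mb had the largest mean genic CG difference of the gene-poor windows with at least 5 such TEs, 25.6 percentage points over 13 TEs. Its SD over TEs was 33.8, and the median TE differed by 7.88.

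Chromosomes 4, 6, 7, 8 and 11 had 1 gene-poor window each. On chromosome 4 (503 TEs) intergenic CHG was 80.5% in EC and 65.4% in leaf, while genic CHG was 24.7% in EC and 37.3% in leaf (n = 28), the lowest genic CHG difference of the chromosomes with at least 10 such TEs. On chromosome 6 (441 TEs) intergenic CG was lower in EC, at 82.7% against 84.3% in leaf, while intergenic CHG was 76.2% in EC and 66.6% in leaf. The CG difference there, -1.57, was close to the -1.59 of the other windows of that chromosome. CG and CHG therefore went in opposite directions in this window.

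On chromosome 7 (522 TEs) intergenic TEs had the lowest CHG level of these 5 windows in both tissues, at 69.9% in EC and 57.2% in leaf, and genic CHG was 7.35 percentage points lower in EC (n = 31). On chromosome 8 the window from 6000000 to 6999999 had the most TEs of all, 692, which covered 75.02% of it. Its intergenic CHG was 87.6% in EC, the highest of the gene-poor windows, and 70.3% in leaf. On chromosome 11 (442 TEs) the window from 11000000 to 11999999 had the smallest genic share, with 2 genic TEs. Intergenic CHG was 76.4% in EC and 65.6% in leaf. Intergenic CG was lower in EC here also, at 78.3% against 80.2% in leaf. Unlike on chromosome 6, this CG difference of -1.90 stood against 3.82 in the other windows of the chromosome.

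Chromosome 9 had 4 gene-poor windows with 1885 TEs, 92 of them genic. Its levels were low, with intergenic CHG at 69.8% in EC and 58.5% in leaf, intergenic CG at 81.7% in EC and 76.6% in leaf, and genic CHG at 33.96% in EC and 32.4% in leaf (n = 46). The genic CHH difference of 14.2 percentage points was below the 17.7 of the other windows of the chromosome, which was otherwise so only on chromosome 4 among the chromosomes with at least 10 genic TEs. Chromosome 10 had 3 neighbouring windows with 1452 TEs. Intergenic CHG was 82.9% in EC and 66.4% in leaf, and genic CHG was 58.0% in EC and 58.5% in leaf (n = 75).

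Chromosomes 12 and 13 had 3 gene-poor windows each, with 1623 and 1588 TEs. On chromosome 12 intergenic CHG was 80.9% in EC and 64.4% in leaf, and genic CHH was 28.7% in EC and 3.21% in leaf. On chromosome 13 intergenic CHG was 79.6% in EC and 64.7% in leaf, and genic CHH was 18.6% in EC and 1.89% in leaf. The intergenic TEs of both chromosomes were thus alike, while the genic CHH difference was 25.5 percentage points on chromosome 12 and 16.7 on chromosome 13, a gap larger than the SD of 5.56 over gene-poor windows. Genic CHG differed by 1.55 on chromosome 12 and by -0.737 on chromosome 13.

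Chromosome 14 had the smallest intergenic CHG difference and was the single chromosome where it was below that of its other windows, with 7.46 percentage points in gene-poor windows and 8.20 in the others. This rested on the window from 9000000 to 9999999, where intergenic CHG was 61.0% in EC and 58.6% in leaf, the lowest difference of the 50 windows (2.34). In its second window, at 11 Mb, the difference was 10.9. TEs covered 28.3% of the lower window and 44.0% of the other.

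Chromosome 15 had 3 gene-poor windows with 1468 TEs, of which those at 2 and 3 Mb were neighbours. Its intergenic CG was high in both tissues, at 89.5% in EC and 86.6% in leaf. Genic CHG was 63.6% in EC and 60.9% in leaf (n = 74). Genic CHH was 28.5% in EC and 2.33% in leaf, the largest genic CHH difference of the chromosomes with at least 10 genic TEs (26.2). Chromosome 16 had 2 windows with 1061 TEs, with intergenic CHG at 74.99% in EC and 62.9% in leaf and genic CHG at 46.5% in EC and 50.6% in leaf (n = 36).

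Chromosome 17 was, with chromosomes 6 and 11, among the 3 with lower intergenic CG in EC. Its mean level was lower in EC in each of its 3 gene-poor windows, by -0.594, -0.329 and -4.10 percentage points. The lowest of these was the window with 52 TEs, from 17000000 to 17999999. TEs covered 5.33% of 1 Mb there, though the chromosome may end inside this window. Over the 603 intergenic TEs listed for CG, of 1060 TEs in all, the mean was 85.5% in EC and 86.1% in leaf. The median such TE differed by 0.1. The mean CG difference of intergenic TEs was -0.657 in these windows and 0.227 in the other windows of the chromosome. Intergenic CHG was 76.3% in EC and 67.4% in leaf, a difference of 8.93. Mean genic CG was 83.1% in EC and 84.6% in leaf, the only chromosome of 17 with a lower mean in EC. The median genic TE differed by 0.51 in CG there, and by -0.3 on chromosome 18.

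Chromosomes 18 and 19 had the most gene-poor windows, 5 and 7, and their mean genic CHG differences had opposite signs. On chromosome 18, with 2876 TEs, intergenic CHG was 82.0% in EC and 67.6% in leaf, and genic CHG was 45.6% in EC and 53.2% in leaf (n = 119). On chromosome 19, with 2985 TEs, intergenic CHG was 76.9% in EC and 58.9% in leaf, and genic CHG was 64.6% in EC and 55.8% in leaf (n = 119). The mean genic CHG difference was therefore -7.60 percentage points on chromosome 18 and 8.74 on chromosome 19. The median genic TE differed by -1.37 on chromosome 18 and by 11.75 on chromosome 19. The mean intergenic CHG difference was 14.4 on chromosome 18 and 18.04 on chromosome 19.

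The 2 longest runs held this contrast. In the run of 4 windows on chromosome 18, genic CHG was 38.2% in EC and 50.1% in leaf (n = 88). Its mean was lower in EC in each window, by -17.4 to -5.67 percentage points, while the median TE differed by -12.88 to 0. In the run of 6 windows on chromosome 19, genic CHG was 67.2% in EC and 57.0% in leaf (n = 108), and it was higher in EC in each window, by 5.37 to 16.2. The window means of the genic CHG difference did not overlap between the runs. The intergenic ones did, with 11.2 to 18.4 on chromosome 18 and 14.4 to 22.5 on chromosome 19. Each chromosome had a further gene-poor window outside its run, where the genic CHG difference had the other sign. It was 4.66 on chromosome 18 at 22 Mb (n = 31) and -5.63 on chromosome 19 at 18 Mb (n = 11).

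Chromosome 1 from 13000000 to 13999999 was the window with both the highest CHG and the highest CG difference of intergenic TEs. CHG was 84.5% in EC and 59.4% in leaf, a difference of 25.1 percentage points, and CG was 90.4% in EC and 75.7% in leaf, a difference of 14.7. Its genic CHG difference was -9.87. The CHH difference was highest in the next window, from 14000000 to 14999999 (34.6), and lowest on chromosome 19 from 14000000 to 14999999 (28.8). Chromosomes 1 and 19 weighed on some pooled values. Without them, an alternative chosen after the data had been seen, the genic CHG difference in gene-poor windows was -1.71 in place of -0.454, and the CG gap of intergenic TEs between gene-poor and other windows was 1.998 in place of 2.92.

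**Figure D4:**
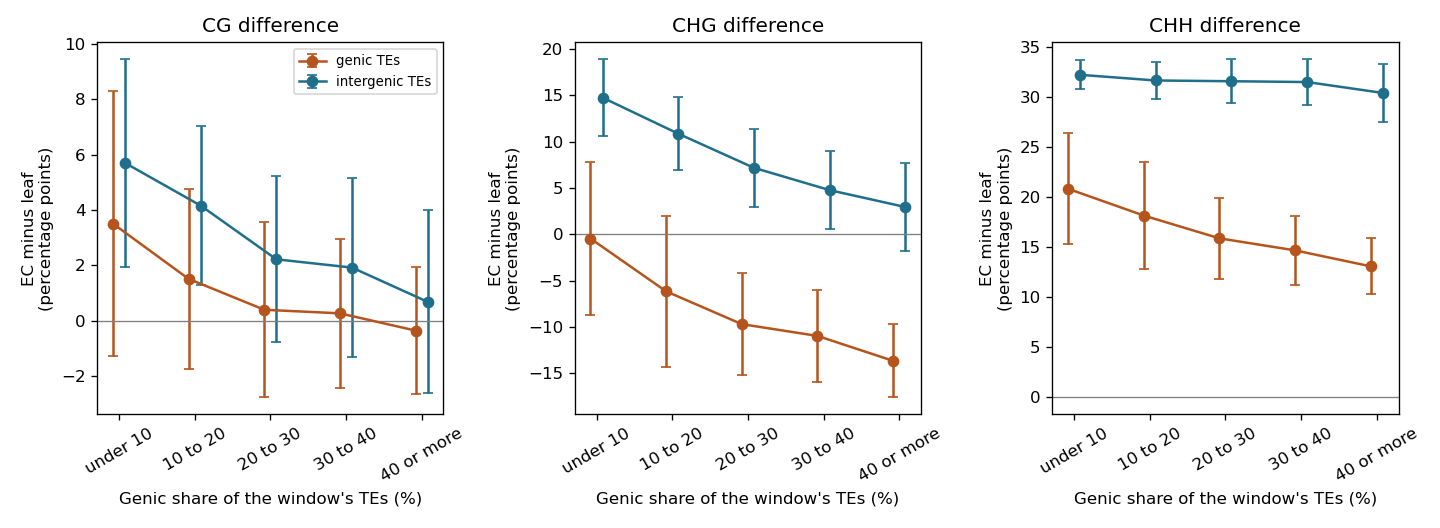
Mean EC minus leaf difference (y axis, percentage points) in CG, CHG and CHH for genic and intergenic TEs, by the genic share of the TEs in the 1 Mb window (x axis, %). Bars are 1 SD over windows with at least 5 TEs of the class. The gene-poor windows are the step under 10%, where intergenic CHG is 14.8 and genic CHG -0.454, against 2.95 and -13.7 in windows with 40% or more.

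Gene-poor windows were the end of a gradient and not a separate group. From windows under 10% to those with 40% or more in steps of 10, the intergenic CHG difference was 14.8, 10.9, 7.18, 4.77 and 2.95 percentage points. The genic CHG difference was -0.454, -6.16, -9.70, -11.0 and -13.7 over the same steps, and the genic CHH difference was 20.8, 18.2, 15.9, 14.7 and 13.1. Intergenic CHH differed little, with 32.2 in gene-poor windows and 30.4 in windows of 40% or more. Each neighbouring pair of steps lay within 1 SD over windows, as the plot by genic share shows, while the gene-poor step and the last step were further apart than their SDs in CHG, with 4.14 and 4.77 for intergenic TEs and 8.23 and 3.94 for genic TEs. The 56 windows next to a gene-poor window lay between, with an intergenic CHG difference of 10.9 against 6.93 in the 327 windows further away, and a genic one of -7.58 against -10.8.

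**Figure D5:**
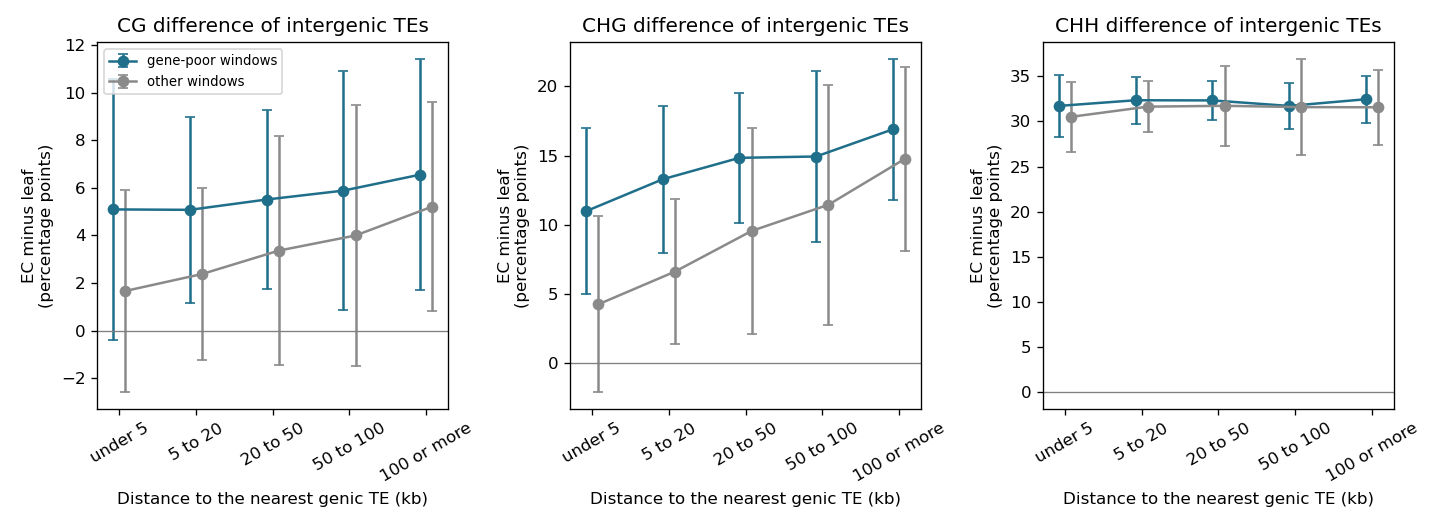
Mean EC minus leaf difference (y axis, percentage points) in CG, CHG and CHH for intergenic TEs, by the distance to the nearest genic TE of the same chromosome (x axis, kb), in gene-poor windows and in the other windows. Bars are 1 SD over windows with at least 5 such TEs. The CHG means of gene-poor windows run from 11.0 under 5 kb to 16.9 at 100 kb or more, against 4.25 and 14.8 in the other windows.

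Intergenic TEs of gene-poor windows lay far from genic TEs, at a median distance of 39.4 kb against 14.3 kb in the other windows. Of them 23.1% were 100 kb or more away, against 3.26%. The rule keeps windows with few genic TEs, so these larger distances are largely built in. The largest distance was 696 kb. In gene-poor windows the CHG difference was 11.0 percentage points under 5 kb, 13.3 from 5 kb, 14.8 from 20 kb, 14.9 from 50 kb and 16.9 from 100 kb. In the other windows it was 4.25, 6.62, 9.56, 11.4 and 14.8. The window groups lay closer together at the larger distances. From 50 kb they lay within the SD over windows, which was 6.16 in gene-poor and 8.66 in other windows. The same held at 100 kb or more, with SDs of 5.08 and 6.65. From 20 kb the gap exceeded the SD of 4.67 over gene-poor windows but not the 7.43 over other windows. The CHG level in gene-poor windows climbed more with distance in EC than in leaf, with 73.9% under 5 kb and 84.0% at 100 kb or more in EC, against 62.9% and 67.1% in leaf.

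Intergenic members had a greater median length and a larger share of overlaps than intergenic TEs elsewhere. The median length of intergenic TEs was 438 bp in gene-poor windows and 305 bp in the other windows, and 7.51% against 5.18% had 3000 bp or more. 35.0% of them overlapped another listed TE, against 27.2%, and 55.3% were listed in all 3 contexts, against 46.3%. Genic TEs were of like length, with medians of 319 and 304 bp. Giving both window groups the same length classes left the intergenic CHG gap at 6.53 percentage points in place of 6.97, and the genic one at 10.04 in place of 9.96.

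Length went with level in both classes. For genic TEs of gene-poor windows under 200 bp, CHG was 33.7% in EC and 38.9% in leaf, and for those of 3000 bp or more it was 73.1% in EC and 69.8% in leaf. The CHG difference was -5.18 percentage points in the short class and 3.31 in the long class, while in the other windows it was -8.94 and -9.20. For intergenic TEs of gene-poor windows CHG was 73.6% in EC and 60.4% in leaf under 200 bp, and 84.8% in EC and 70.7% in leaf at 3000 bp or more, so the difference was 13.2 and 14.1.

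The contexts were also read together in the 12725 intergenic and 813 genic members listed for all 3. The commonest pattern of intergenic TEs was CHG and CHH at least 10 percentage points higher in EC with CG within 10, in 5873 (46.2%), against 36.2% in the other windows. 2483 (19.5%) were higher in all 3, against 12.4%, and 414 (3.25%) were lower in CHG and higher in CHH, against 9.38%. CG and CHG both reached 80% in 64.6% of these TEs in EC and in 15.6% in leaf, against 48.1% in EC and 17.7% in leaf in the other windows. Among genic TEs 103 (12.7%) were lower in CHG and higher in CHH, against 23.6%, and both CG and CHG reached 80% in 32.5% in EC and 15.9% in leaf, against 14.1% in EC and 17.7% in leaf in the other windows.

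Single TEs with levels near these means are given as examples. The intergenic TE of at least 1000 bp nearest to all class means lay on the plus strand of chromosome 3, from 16666038 to 16670191. It had 88.2% CG, 77.7% CHG and 34.05% CHH methylation in EC, against 82.4, 64.8 and 4.59% in leaf. Its genic counterpart, on the plus strand of chromosome 9 from 10819876 to 10820992, had 92.7% CG, 58.9% CHG and 20.2% CHH in EC, against 77.8, 49.6 and 2.98% in leaf. This genic TE was 9.25 percentage points higher in EC in CHG and 14.87 in CG, while the class mean differences were -0.454 and 3.51. In CHG it stood at a middle level in both tissues, as did 19.1% of genic members in EC and 21.0% in leaf. The names and families of both TEs are not in the tables used.

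The extremes went far beyond the means, and they were chosen by their size among 5899 intergenic and 317 genic TEs of at least 1000 bp listed in all contexts. The lowest CHG difference of an intergenic TE was on the minus strand of chromosome 14 from 9047444 to 9048464, in the window with the lowest CHG difference, with 2.24% in EC and 82.7% in leaf while CG was 83.5% in EC and 92.5% in leaf. The lowest CG difference was on the plus strand of chromosome 18 from 16205179 to 16206900, with 19.99% in EC and 81.8% in leaf, and its CHG was 6.49% in EC and 58.0% in leaf. This TE thus had low methylation in both contexts in EC alone. The highest CHH difference was on the plus strand of chromosome 3 from 10670678 to 10673230, with 75.5% in EC and 2.30% in leaf. At the other end, the TE on the minus strand of chromosome 19 from 15974042 to 15983527 had 36.2% CHH in EC and 36.4% in leaf, a high level for leaf.

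Among genic TEs the lowest CHG difference was on the plus strand of chromosome 2 from 14959232 to 14960903, with 5.23% in EC and 72.4% in leaf, while its CG was 92.5% in EC and 69.1% in leaf. The highest CHG difference was on the minus strand of chromosome 19 from 11401338 to 11402623, with 71.9% in EC and 12.5% in leaf, and its CG was alike in both tissues at 72.9% and 72.7%. These lay in windows whose genic CHG means had the same sign, -18.5 and 13.0 percentage points. The TEs are part of these means (n = 22 and 15), so the same sign is partly built in. On chromosome 12 the TE from 10300888 to 10302648 on the minus strand had CG at 0% in EC and 5.56% in leaf, CHG at 92.3% in EC and 90.5% in leaf, and CHH at 62.7% in EC and 2.66% in leaf. It was high in CHG with almost no CG methylation, which none of the class means resembles.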

How the data were processed

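Whole-genome bisulphite libraries of EC and leaf (1 each, assigned by tissue label) were used. The study's methods state that the authors aligned reads to the 12X assembly of PN40024 with BS-Seeker2, called methylation with cgmaptools, annotated TEs with RepeatMasker, divided them into genic and intergenic TEs with BEDtools, and left out TEs whose effective coverage was 20 or lower in either library. The values deposited by the authors are a methylated fraction per TE, context and library. The coverage minimum removes poorly covered TEs from both tissues. Mapping to a genome of another cultivar can turn a C-to-T difference into apparent loss of methylation in both libraries, and reads from repeated copies can be placed on the wrong copy, which matters in TE-dense windows. The depth of single values is unknown, so no interval is given.

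The 6 tables of TEs were pooled. The 2 tables of averaged profiles were not used. Fractions were multiplied by 100, and unweighted means over TEs of the EC minus leaf difference were computed with Python 3.11.15, numpy 2.4.6 and pandas 2.3.3, and drawn with matplotlib 3.10.9. Other windows means all TEs of chromosomes 1 to 19 outside gene-poor windows, including 64 in 6 windows with fewer than 50 TEs. Window means needed at least 5 TEs. No test was made, because there is 1 library per tissue, and TEs and windows are not replicates. The window rule and the handling of overlapping TEs were checked on small made-up sets. Planted differences were recovered as plain means, which does not check the code of the summaries. Windows were named for the highest and lowest differences, TE numbers and genic shares, and for lying near the limits of the rule. Single TEs of at least 1000 bp listed in all contexts were named for the largest and smallest difference per class and context, or for lying nearest to the class means. Not every TE so found is printed. The members, lists and comparisons were chosen with earlier results of these data known. Alternatives covered other limits on genic share, TE number, window size, length, level and difference. Sequences of the TEs are not used here.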

Additional observations from a re-analysis of the deposited data

Results flagged for a closer look

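In gene-poor windows the mean CHG difference had opposite signs in genic and intergenic TEs, though no direction held for the genic TEs. The mean EC minus leaf difference was -0.454 percentage points for genic TEs (n = 1030) and 14.8 for intergenic TEs (n = 14691). With 1 library per tissue the difference between the classes was not tested. The genic value is within the SD of 8.23 over windows, the median genic TE differed by 2.22, and the sign of the mean depends on the processing.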

How the results depend on the processing

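Of 352 recomputed values of 32 results, 329 kept their direction and stayed within the spread over gene-poor windows, 14 moved beyond it and 9 reversed. The genic CHG difference (-0.454 percentage points) turned positive with a genic share under 5% (7.39, from 10 windows), windows of 0.5 Mb (0.679) or shifted by 0.5 Mb (1.51), TEs listed in all 3 contexts (0.836), TEs of at least 500 bp (1.09), the median (2.22) and the mean over all 50 windows, each counted once and with no minimum of TEs (0.720; 0.304 over the 47 windows with at least 5), so no direction can be given for it. A genic share under 5% also gave a genic CG difference of 8.82, a genic CG gap to the other windows of 8.36 and 29.2% of genic TEs higher in CG, and raised the genic CHG gap to 17.5 and the share of genic TEs higher in CHG to 47.4%. The intergenic CHH gap to the other windows reversed with TEs of at least 500 bp (-0.205) and with TEs that reach 20% in EC or leaf (-2.34). This minimum selects TEs with high EC values in CHH and gave CHH differences of 33.3 for genic and 35.1 for intergenic TEs. A minimum of 20 percentage points left 5.74% of genic TEs higher in CG, and 9.99% of intergenic TEs higher in CG, 32.1% in CHG and 85.9% in CHH. A minimum of 5 gave 33.9% of genic TEs higher in CG, and 42.5% of intergenic TEs higher and 10.5% lower in CG, and 79.5% higher in CHG. With limits of 10 and 70%, 46.6% of intergenic TEs were high in CHG in leaf. Where no construction is named, the cause was not tested.

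3 alternatives were chosen after seeing the data. Without chromosomes 1 and 19 the gaps to the other windows were 5.95 for intergenic CHG, 8.65 for genic CHG and 1.998 for intergenic CG. Averaged within chromosomes they were 6.23, 9.26 and 2.07. Without the window of 52 TEs the intergenic CHG difference was 14.8. No paired analysis was possible because there is 1 library per tissue and no replicate number. The number of reads and cytosines behind a value limits what can be said of single short TEs.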

Other observations

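A CHH value of 0 was given for 3.66% of the genic and 0.422% of the intergenic TEs of gene-poor windows in EC, and for 21.1% of the genic and 10.6% of the intergenic TEs in leaf. These shares were, in the other windows, 5.53 and 1.28% in EC, and 23.1 and 15.7% in leaf. Among the TEs listed for CHH alone, mean CHH was 20.7% in EC and 1.76% in leaf for genic TEs (n = 475), and 33.9% in EC and 2.52% in leaf for intergenic TEs (n = 6587).

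Across single TEs of gene-poor windows listed in all contexts, the CHG and CHH differences had a Pearson correlation of 0.574 for genic TEs (n = 813) and 0.303 for intergenic TEs (n = 12725). The CG and CHG differences had one of 0.328 for genic TEs and 0.465 for intergenic TEs. These are across TEs that share the same pair of libraries and are given as a description.

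Leaf CG below 20% was rare and went with high differences. 185 intergenic TEs of gene-poor windows (1.28%) had such a level, and their mean CG was 48.4% in EC and 6.57% in leaf, against 25.4% in EC and 4.77% in leaf for 1506 such TEs in the other windows. As these TEs were picked by their leaf value, part of the difference is built in.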
